A study of Ovis aries with 2 samples.

Results

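Of 685 T or NK cells in a native sheep carotid artery, 422 held at least 1 transcript of IFNG or XCL1, and they are described here. The cells were chosen by their measured counts. A cell barcode of the native library with at least 500 unique molecular identifiers (UMIs, 1 for each captured transcript) and at most 20% mitochondrial UMIs was called T or NK with at least 2 UMIs of 7 genes, CD3D, CD3E, CD3G, CD2, LCK, CTSW and NKG7. That sum also had to be at least 2 times the sum of 6 endothelial genes, of 4 macrophage genes and of 4 fibroblast genes. The other 263 T or NK cells of the library, with 0 UMIs of IFNG and XCL1, are the comparison, called the cells with 0. In all, 11108 of 11371 native barcodes met the UMI and mitochondrial limits, and the series holds 12600 barcodes.

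The series compares 2 single-cell RNA libraries from sheep aged 1 to 2 years, taken at 12 weeks after grafting: a native carotid artery, whose title calls it an aorta, and an implanted graft titled H2R5-ATEV. Both vessels were digested with enzymes from the inside and treated to lyse red cells before capture, per the labels. The labels list no lymphocytes among the cell types of either tissue. No strain, genotype or sort is given, and the labels do not say whether the tissues came from 1 animal or several. The native library held 43183715 UMIs with a median of 1366 per barcode, and the graft library 36238351 UMIs in 1229 barcodes with a median of 17050. The libraries shared 7 barcode sequences, and 0 of those were among the native T or NK cells. With 1 library of each tissue no difference has a replicate check and no test was made. All intervals are 95% and cover counting error only, which is too narrow where a gene's UMIs are bunched in few cells.

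Interferon gamma, the product of IFNG, is a cytokine released by T and NK cells that acts through the receptor chains IFNGR1 and IFNGR2 on most cells, where it turns on antigen presentation and chemokine genes. XCL1, or lymphotactin, is a chemokine made by activated CD8 T cells and NK cells, and its receptor XCR1 is known from dendritic cells that cross-present antigen. Both ligands are made early in a response, often beside the granule proteases that kill target cells. In the vessel wall, interferon gamma is known for its action on endothelial cells, macrophages and smooth muscle cells.

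The 2 ligands were found in partly separate cells. Among the 422 cells, 126 held IFNG only, 190 held XCL1 only and 106 held both. IFNG was found in 232 cells with 886 UMIs, and XCL1 in 296 cells with 4267 UMIs. The summed level in the 422 cells was 306 CPM (UMIs of a gene per 1000000 UMIs of the set) for IFNG and 1472 CPM for XCL1. These levels follow from the choice of cells and are given as a description.

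A small number of cells held a large part of the ligand transcripts. For IFNG and XCL1 together, 43 cells held 41.8% of the UMIs. The 43 cells with most IFNG held 59.4% of its UMIs, and the 43 with most XCL1 held 47.6% of its UMIs. The highest single cell had 64 UMIs of IFNG, and the highest for XCL1 had 101. The median cell with IFNG had 2 UMIs and the median cell with XCL1 had 8. IFNG was thus mostly a low count per cell, with 91 of 232 cells at exactly 1 UMI and 17 at 10 or more, whereas 136 of 296 XCL1 cells had 10 or more.

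Just inside the limit on the ligands were 82 cells with exactly 1 UMI, 44 of them by IFNG and 38 by XCL1. Their median was 4646.5 UMIs in all, near the 4457 of the cells with 0 that lie just outside it. A further 89 cells had 2 to 3 UMIs of the ligands, 96 had 4 to 9, 67 had 10 to 19, and 88 had 20 or more. On the limit for T genes, 21 of the 422 cells had exactly 2 T gene UMIs, with a median of 859 UMIs, and 52 barcodes left outside every class had 1 T gene UMI and held 77 UMIs of the ligands.

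**Figure D1:**
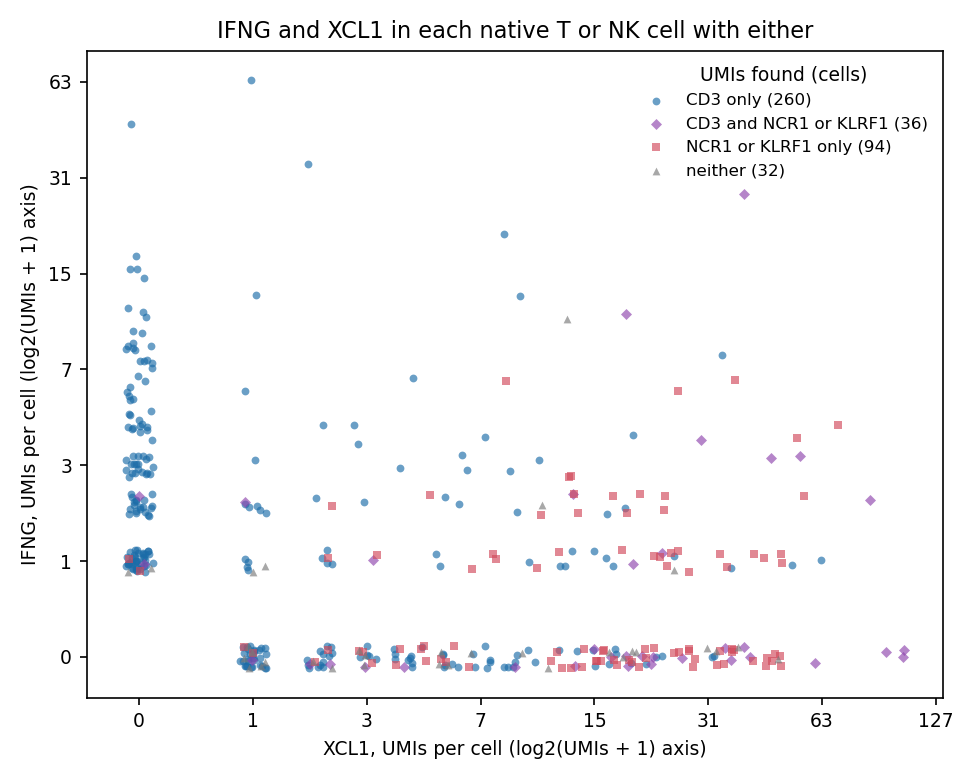
Each point is 1 of the 422 native T or NK cells with IFNG or XCL1, placed by its UMIs of XCL1 (x axis) and IFNG (y axis), both on a log2(UMIs + 1) axis with a small random shift. Colours give whether UMIs of CD3D, CD3E or CD3G and of NCR1 or KLRF1 were found. The column of cells with IFNG and 0 XCL1 is almost wholly CD3 only, and cells with NCR1 or KLRF1 lie to the right.

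Deeper cells entered the set more often. The share of T or NK cells with a ligand UMI was 61.6% overall (57.8 to 65.3%). It was 36.4% of the 66 cells with 500 to 1000 UMIs (24.9 to 49.1%) and 86.8% of the 152 cells with 8000 or more (80.4 to 91.8%). The 422 cells had a median of 6263.5 UMIs (518 to 24996) and 2339.5 genes, against 4457 UMIs (511 to 13064) and 1857 genes in the cells with 0. Mitochondrial shares were close, with medians of 1.99% and 2.27%. When every T or NK cell of at least 1000 UMIs was drawn down to 1000 UMIs, 42.0% still held a ligand UMI (38.1 to 46.0%, 260 of 619 cells). The part of depth in each comparison of the 422 cells with the cells with 0 was not tested beyond the values at 1000 UMIs given beside it.

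Ligand UMIs also appeared at a low share in cells that should lack them. Of 5289 endothelial cells 5.33% had 1 (median 1925 UMIs), of 1201 macrophages 7.49% (median 1306), and of 1277 fibroblasts 5.32% (median 2416), each called by the same kind of rule. After the draw to 1000 UMIs these shares were 2.53%, 3.31% and 1.45%. Endothelial cells of 8000 or more UMIs showed 2.87% (1.76 to 4.40%), far under the 86.8% of T or NK cells at that depth, and 0.144% of them had 2 or more ligand UMIs against 83.6%. Macrophages of that depth showed 5.64%, with 2.56% at 2 or more ligand UMIs, and fibroblasts 3.93% and 0.621%. The summed ligand level was 19.7 CPM in endothelial cells and 1280 CPM in all T or NK cells. Of the 6362 ligand UMIs in native cells that met the limits, 81.0% lay in the T or NK class. Another 53 unclassed barcodes with 2 or more T gene UMIs held 280 of them.

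**Figure D2:**
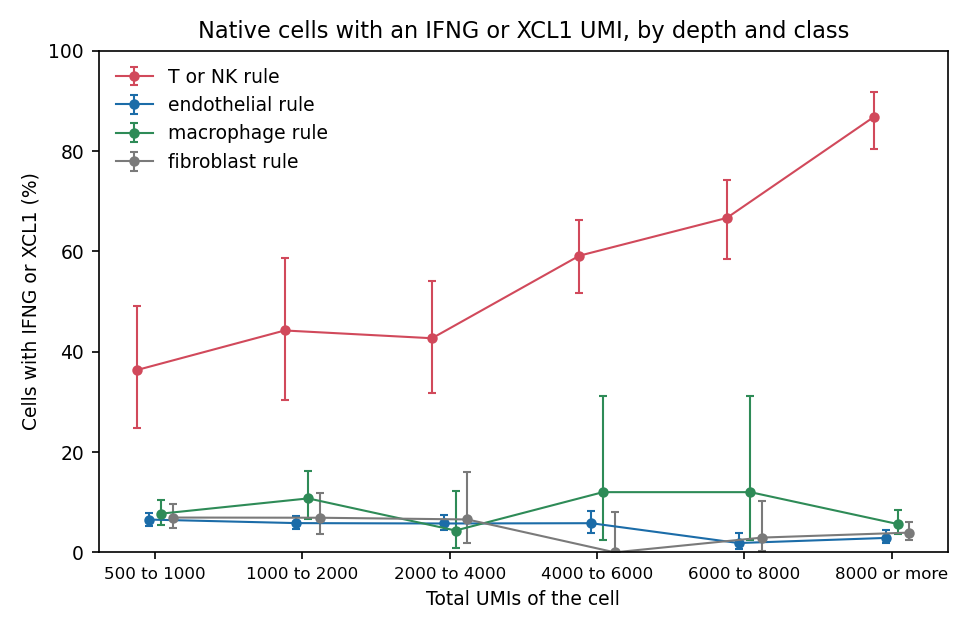
The y axis gives the percentage of native cells with at least 1 UMI of IFNG or XCL1, in bins of total UMIs (x axis), for cells called T or NK, endothelial, macrophage and fibroblast. Bars are exact 95% binomial intervals. The T or NK share goes from 36.4% to 86.8%, while the endothelial share stays between 1.85% and 6.53%. The macrophage share reaches 12% (3 of 25 cells) in each bin from 4000 to 8000 UMIs.

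Of the marker genes given for these cells, CD69 and GZMB took no part in the choice of cells. CD69, an early activation marker that also holds lymphocytes in tissue, was at 444 CPM in the 422 cells and 289 CPM in the cells with 0, a ratio of 1.54 (1.36 to 1.74). At 1000 UMIs it was in 32.9% (28.3 to 37.8%) and 25.8% (20.2 to 32.1%) of cells, with overlapping intervals. GZMB, the granule protease granzyme B, was at 261 against 144 CPM, a ratio of 1.81 (1.52 to 2.15), and at 1000 UMIs in 22.9% (18.8 to 27.3%) and 11.3% (7.46 to 16.2%) of cells. NKG7, a granule membrane protein, was 2.44-fold higher (2.11 to 2.83) and CTSW, the protease cathepsin W, 3.38-fold higher (3.002 to 3.83). NKG7 and CTSW were used to call T or NK cells, so a cell can enter through them without CD3, and their ratios are a description and support no identity.

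CD3 chains, which carry the T cell receptor signal, were found in a smaller share of the cells with a ligand. The CD3 genes also took part in calling T or NK cells. The CD3 shares and levels here and below are thus a description that the rule partly sets. At least 1 UMI of CD3D, CD3E or CD3G was in 70.1% of the 422 cells (65.5 to 74.5%) and in 93.2% of the cells with 0 (89.4 to 95.9%). After the draw to 1000 UMIs, which left out 24 and 42 cells, the shares were 59.8% and 86.0%. NCR1, which encodes the NK receptor NKp46, or KLRF1, which encodes NKp80, was in 30.8% (26.4 to 35.4%) against 1.90% (5 of 263 cells). At 1000 UMIs these were 9.55% and 0 of 221 cells, and KLRF1 and NCR1 were in 0.156% and 0.0782% of endothelial cells at that depth. By these markers the 422 cells split into 260 with CD3 only, 36 with both, 94 with NCR1 or KLRF1 only and 32 with neither. The median depths of the first 3 sets were 5605.5, 9602 and 8844.5 UMIs. At 1000 UMIs 8 of the 36 cells with both still held CD3 and 10 held NCR1 or KLRF1. The part of depth and of doublets in this set of 36 was not tested. The 32 cells with neither were shallow, with a median of 1940.5 UMIs, and most of their ligand was XCL1 (330 UMIs, against 18 of IFNG).

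Among the cells with a ligand, XCL1 went with the NK markers and IFNG with CD3. The choice of cells partly sets this, since a cell without XCL1 had to hold IFNG to be counted. That choice left out 240 cells with CD3 only and 5 with NCR1 or KLRF1. IFNG was in 172 of all 500 T or NK cells with CD3 only. It was in 53 of the 130 cells with a ligand and NCR1 or KLRF1. With the cells with 0 counted, the share with IFNG was thus not higher in cells with CD3 only. Cells with IFNG only held CD3 in 96.8% (122 of 126) and NCR1 or KLRF1 in 3.17% (4 of 126). In cells with XCL1 only the shares were 58.4% and 40.5%, and in cells with both 59.4% and 46.2%. At 1000 UMIs the shares were 91.7% and 0 of 120 cells with IFNG only, 45.7% and 14.3% with XCL1 only, and 46.6% and 12.6% with both. Of the 88 cells with 20 or more ligand UMIs, 72.7% had NCR1 or KLRF1 and 43.2% had CD3, and 87 of the 88 held XCL1. These 88 cells were deep, with a median of 9482 UMIs, and at 1000 UMIs the 2 marker shares were 27.3% and 20.5%. Summed levels in the cells with a ligand show the same order. XCL1 was at 639 CPM in cells with CD3 only, 2790 CPM in cells with both markers and 2225 CPM in cells with NCR1 or KLRF1 only. IFNG was at 473 CPM, 167 CPM and 87.0 CPM in the same order. CD3E itself was at 2004 CPM in the first set and 336 CPM in the 36 cells with both markers.

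CD8A, a chain of the coreceptor of cytotoxic T cells that some NK cells also carry, was in 44.1% of the 422 cells and 20.5% of the cells with 0. CD4, the coreceptor of helper T cells, was in 6.16% and 15.2%. At 1000 UMIs the CD8A shares were 14.3% (11.0 to 18.2%) and 9.05% (5.62 to 13.6%), and the CD4 shares 1.51% and 4.52%, all with overlapping intervals. Summed CD8A was 1.84-fold higher (1.44 to 2.36) and summed CD4 3.55-fold lower (2.40 to 5.29).

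Across the transcriptome, the cells with IFNG or XCL1 carried more transcripts of 7 of 9 NK receptor and adaptor genes and of the receptor chains IL12RB2 and IL2RB, and fewer of 5 of 13 genes of naive and memory T cells. A gene was counted as higher or lower where its CPM, with 5 CPM added to each side, differed 2-fold or more. Of 9268 genes with at least 30 UMIs over both sets, the genes of the rule left out, 336 were counted as higher (3.63%) and 154 as lower (1.66%). The log2 ratio over those genes had a median of 0.05. In this comparison of 2 sets of cells from 1 library the sets also differ in depth and in their share of NK-marked cells, as given above. With CD3-positive cells without NCR1 or KLRF1 on both sides (260 against 240 cells, a comparison added after seeing the data), 190 of 7993 genes were counted as higher (2.38%) and 140 as lower (1.75%).

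Genes of NK receptors and their adaptors led the higher side. KLRF1 had 246 UMIs in 103 of the 422 cells and 1 UMI in the cells with 0, a ratio of 95.8 (17.0 to 3798). SH2D1B, which encodes the adaptor EAT-2 of SLAM family receptors, had 308 UMIs in 93 cells against 3 UMIs, a ratio of 40.0 (13.5 to 195). NCR1 had 217 UMIs in 95 cells against 4, a ratio of 21.1 (8.13 to 78.2). These 3 genes were nearly absent from the cells with 0 and at 1.26 to 1.85 CPM in all other native cells. CLNK, an adaptor of immune receptor signalling, was 14.02-fold higher (5.90 to 43.7), and VAV3, a guanine nucleotide exchange factor downstream of such receptors, 8.41-fold higher (6.96 to 10.3) at 834 against 99.2 CPM.

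IL12RB2, the signalling chain of the interleukin 12 receptor, through which that cytokine is known to induce IFNG, was at 585 CPM against 71.8 CPM. It was found in 206 of 422 cells and 31 of 263, and its ratio was 8.15 (6.52 to 10.3). At 1000 UMIs its share was 24.1% (20.0 to 28.6%) against 3.62% (1.58 to 7.01%), and 0.443% in endothelial cells. IL12RB2 was at 178 CPM in cells with CD3 only and 1029 CPM in cells with NCR1 or KLRF1 only. The cells with CD3 only thus lay between the cells with 0 and the NK-marked cells.

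CCL1, a chemokine ligand of CCR8, had 246 UMIs against 0. It was 31.9-fold higher against a floor of 3 UMIs over the cells with 0, while counting error alone allows a ratio down to 25.8. Its UMIs came from 19 cells, and 1 cell held 131 of them. Without that cell and the cell leading TOP2A (left out after seeing the data), its log2 ratio was 3.17 against 4.17 with them. Among the others of the 15 genes with the highest ratios were EPB41L3, a membrane skeleton protein (16.5-fold), PDE1C, a cyclic nucleotide phosphodiesterase (33.3-fold, on 2 UMIs in the cells with 0), MTSS1, an actin-binding protein (9.61-fold), PLEKHA5 (11.0-fold), SKAP2, an adaptor of integrin signalling (10.2-fold), DNAJC6, which encodes auxilin (7.93-fold), and PLEK, which encodes pleckstrin (9.13-fold). Outside the T or NK class, native cells held more SKAP2 (144 CPM) and PLEK (162 CPM) than the 422 cells did (126 and 89.0 CPM), and the part of free RNA in them was not tested. In the comparison limited to CD3-positive cells without NCR1 or KLRF1, PLEKHA5 had a log2 ratio of -0.42 and DNAJC6 of 0.20, so neither had a 2-fold excess there. The cells with a ligand in that comparison held 9 UMIs of PLEKHA5 (5.82 CPM, near the 5 CPM added) and 103 of DNAJC6, so the PLEKHA5 value is loosely bounded. VAV3 was at 1.91 and IL12RB2 at 1.25 in that comparison.

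**Figure D3:**
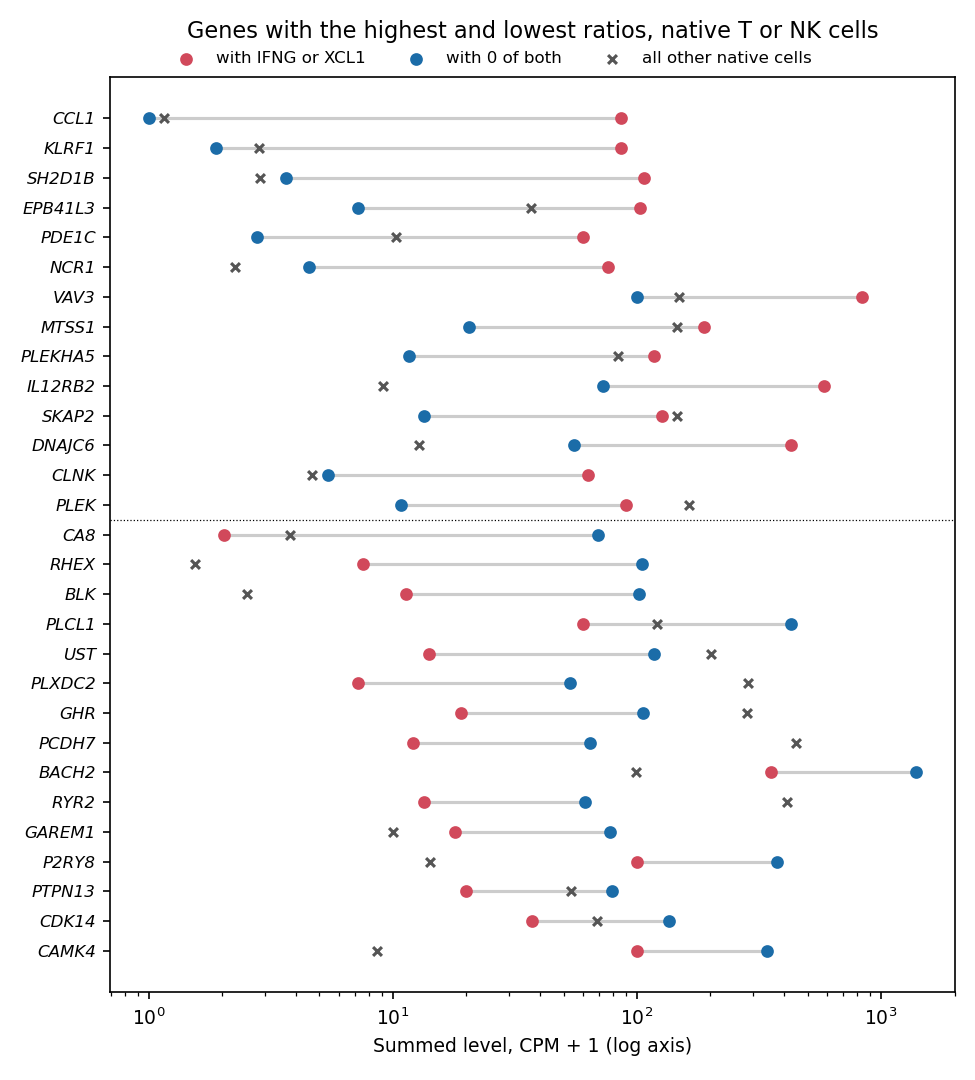
Summed levels (CPM + 1, log axis) of 14 of the 15 genes with the highest and, under the dotted line, the 15 with the lowest ratio between the 422 native T or NK cells with IFNG or XCL1 (red) and the 263 cells with 0 (blue). Crosses give all other native cells. For 5 of the 15 lower genes, such as PCDH7 and RYR2, the cross lies to the right of both points.

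On the lower side, BACH2, a repressor that holds back effector differentiation in T cells, was at 353 CPM against 1394 CPM, 3.95-fold lower (3.65 to 4.28). One of the cells with 0 held 211 of their 1573 BACH2 UMIs. At 1000 UMIs BACH2 was found in 17.3% (13.7 to 21.4%) of the cells with a ligand and 35.7% (29.4 to 42.4%) of those with 0. CAMK4, a calcium-dependent kinase of T cells, was 3.45-fold lower (2.95 to 4.03) and P2RY8, a G protein-coupled receptor best known for confining B cells to germinal centres, 3.75-fold lower (3.22 to 4.37). BLK, a Src family kinase best known in B cells, had 30 UMIs against 114 and was 9.76-fold lower (6.48 to 15.1). PLCL1, a phospholipase C-like protein, was 7.21-fold lower (6.05 to 8.63), and RHEX had 19 UMIs in 3 cells against 117 in 33.

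CA8, a member of the carbonic anhydrase family without enzyme activity, had 3 UMIs against 77, a ratio of 65.9 in favour of the cells with 0 (21.7 to 327). GAREM1, an adaptor of growth factor signalling, was 4.51-fold lower, the phosphatase gene PTPN13 4.11-fold and the kinase gene CDK14 3.69-fold lower. The remaining 5 of the 15 were UST, a sulfotransferase (8.85-fold), PLXDC2 (8.42-fold), GHR, the growth hormone receptor (5.83-fold), PCDH7, a protocadherin (5.70-fold), and RYR2, a calcium release channel of muscle (4.85-fold). All 5 had more CPM outside the T or NK class, at 201 to 449, than in the cells with 0. A single cell held 55 of the 71 PCDH7 UMIs of the cells with 0, and the PCDH7 log2 ratio was -0.22 with at least 3 T gene UMIs asked for and -0.27 with 4 times the other classes. Markers of other cell types moved the same way: the summed fibroblast list of 7 genes was at 265 CPM in the cells with a ligand, 400 CPM in the cells with 0 and 10080 CPM in other native cells, and the part of such RNA in these 5 genes was not tested.

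Many of the largest ratios belonged to genes without a symbol. Without the limit to named genes, 9 of the 15 highest and 3 of the 15 lowest were features with an identifier only. ENSOARG00020026708 had 717 UMIs against 1, and ENSOARG00020007688 had 573 against 2. ENSOARG00020036134 had 7 UMIs against 156, and ENSOARG00020037446 had 87 against 279. Of the 331 genes of the lists below, 58 had no matching symbol in the files.

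Gene lists were read by the same counts and by their median log2 ratio, with 5 CPM added, over list genes with at least 10 UMIs. Among all 11683 genes with at least 10 UMIs, 3.31% counted as higher and 2.00% as lower, and the median was 0.04. In the NK receptor and adaptor list 10 of 19 genes had a symbol, 9 had enough UMIs, and 7 of the 9 counted as higher and 0 as lower. Its median was 1.84 (0.76 to 3.86). KLRK1, which encodes the activating receptor NKG2D, was at 808 against 222 CPM (3.65-fold, 3.20 to 4.17) and was in 47.7% against 17.6% of cells at 1000 UMIs. CD96 was 2.10-fold, TXK, a Tec family kinase, 2.94-fold and CD226 1.71-fold higher, and SLAMF7, an NK and effector cell receptor, had a ratio of 1.33 (0.871 to 2.09). With CD3-positive cells without NCR1 or KLRF1 the median was 1.04, and with cells drawn to 1000 UMIs before the rule was applied it was 0.53. KLRF1 and NCR1 are at 0 UMIs in the first of these by the choice of cells, so its median does not rest on the same 9 genes.

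Cytotoxic granule genes differed less. Of 13 measured genes 1 counted as higher and 0 as lower, and the median was 0.55 (-0.01 to 0.95). The member past that limit was GZMA, granzyme A, with 76 against 6 UMIs (4.93-fold, 2.16 to 13.9). CTSC, the protease that activates granzymes, was 1.60-fold and STX11, a syntaxin of granule release, 2.01-fold higher by the plain ratio. SRGN, the granule proteoglycan serglycin, was level at 1059 and 1066 CPM. GZMK, granzyme K, was lower, at 73.1 against 113 CPM. With cells drawn to 1000 UMIs before the rule, the median was -0.018.

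Activation genes had a median of 0.46 (-0.43 to 0.74) over 14 members, of which 1 counted as higher and 1 as lower. The higher one was TNFRSF18, the costimulatory receptor GITR, at 92.1 against 23.0 CPM (3.998-fold, 2.67 to 6.23). The lower one was ICOS, a costimulatory receptor of helper T cells, at 90.7 against 242 CPM (2.67-fold lower, 2.24 to 3.17). NR4A2, an early response gene, was 1.41-fold higher (1.17 to 1.71) and EGR1, another, 1.67-fold lower (1.35 to 2.07). Immediate early and heat shock genes, which dissociation can induce, had 0 of 21 members past 2-fold in either direction and a median of -0.06. HSP90AA1 was at 2576 and 2247 CPM and JUN at 1160 and 1117 CPM. The NF-kB feedback list was at 0.14 with 0 of 11 past 2-fold, and TNFAIP3, which encodes the inhibitor A20, was level at 1187 and 1176 CPM.

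Genes of naive and memory T cells were lower in the cells with a ligand. Of 13 genes 5 counted as lower and 0 as higher, and the median was -0.73 (-1.61 to -0.33). IL7R, the receptor chain for the survival cytokine interleukin 7, was at 325 against 719 CPM (2.21-fold lower, 2.01 to 2.43), and at 1000 UMIs it was in 23.9% (19.8 to 28.4%) against 35.7% (29.4 to 42.4%) of cells. FOXP1, a factor of quiescence, was 1.40-fold and SATB1 1.25-fold lower, while TXNIP was level at 117 and 115 CPM. Beside BACH2 and IL7R, LEF1 and S1PR1 also counted as lower. LEF1, a transcription factor of naive cells, was at 109 against 343 CPM, and S1PR1, the receptor by which T cells leave tissue, at 28.6 against 92.2 CPM. The 2 were named after their values were seen. In CD3-positive cells without NCR1 or KLRF1 the median was -0.89, so the lower level of this list was also present without the NK-marked cells.

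Effector transcription factors had a median of 0.19 (0.09 to 1.35) over 14 genes, of which 3 counted as higher and 1 as lower. IRF8 (65 against 6 UMIs) and IRF4 (39 against 38 UMIs, 2.50-fold lower by CPM) were the extremes. IKZF2, which encodes Helios, was 2.59-fold higher (2.21 to 3.05), at 413 against 159 CPM. EOMES, the third past 2-fold and named after its values were seen, is a T-box factor of NK and memory CD8 cells and was 2.79-fold higher (2.11 to 3.75). STAT4, which carries interleukin 12 signals to IFNG, differed little, at 605 and 504 CPM (1.20-fold, 1.09 to 1.32). ID2 and TOX had ratios of 1.10 and 0.922.

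Cytokine receptors moved in both directions, with 2 of 16 counted as higher, 3 as lower and a median of -0.11 (-0.73 to 0.36). Beside IL12RB2, the higher one was IL2RB, the chain shared by the interleukin 2 and 15 receptors, at 452 against 110 CPM (4.11-fold, 3.42 to 4.99) and in 32.7% against 8.14% of cells at 1000 UMIs. IL2RG, the common gamma chain, was level at 274 and 276 CPM. IFNGR2, the signalling chain of the interferon gamma receptor, had 14 UMIs against 49, 8.99-fold lower (4.88 to 17.6). IFNGR1, the ligand-binding chain, was 1.80-fold lower (1.22 to 2.63). IFNGR2 was at 169 CPM in other native cells, so these counts lie under the level around them, and at 1000 UMIs its shares were 0.754% and 2.26% with overlapping intervals.

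Genes that answer interferon gamma were not higher as a list in the 422 cells, of which 190 held XCL1 and no IFNG. Summed, the list was at 3619 CPM in cells with IFNG only, 2793 CPM with XCL1 only and 3176 CPM in the cells with 0. The counts that follow are for all 422 cells. Of 27 listed genes 21 had enough UMIs, 0 counted as higher and 2 as lower, and the median was -0.04 (-0.40 to 0.09). The lower ones were SOCS3, a feedback inhibitor of cytokine signalling, with 61 against 66 UMIs (2.78-fold lower), and CD274, which encodes PD-L1 and was named after its values were seen, with 17 against 22 (3.32-fold lower). JAK1 was level at 856 and 858 CPM, and PSMB8, an immunoproteasome subunit, at 564 and 579 CPM. SOCS1 was at 224 and 225 CPM, and TAP1, the peptide transporter of antigen presentation, at 175 and 232 CPM. The type I interferon list had 0 of 15 counted as higher, 1 as lower (MX2, 12 against 15 UMIs) and a median of -0.22, with IFI6 at 122 and 143 CPM and IFIH1 at 167 and 137 CPM.

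Cell cycle genes were higher in the summed counts, with 4 of 8 genes counted as higher, 0 as lower and a median of 1.08 (0.56 to 1.87). CENPF, a kinetochore protein, was 3.88-fold and TOP2A, a topoisomerase of dividing cells, 3.72-fold higher, while the tubulin gene TUBB was 1.86-fold and STMN1, a regulator of microtubules, 1.49-fold higher. CDK1 and TPX2 were the others counted as higher, named after their values were seen. One cell held 118 of the 803 TOP2A UMIs. The 717 CENPF UMIs lay in 72 cells, and 1 cell held 134 of them. With every cell given equal weight the median was 0.38, and with cells drawn to 1000 UMIs before the rule 0.17. The share of cells with 2 or more UMIs of the list at 1000 UMIs was 17.1% (13.5 to 21.2%) against 12.2% (8.21 to 17.3%).

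Other secreted products showed no common shift. Of 12 cytokine genes 1 counted as higher, LTA, which encodes lymphotoxin alpha (35 against 3 UMIs), and 1 lower, IL10 (4 against 10 UMIs), with a median of 0.14. TNF, the inflammatory cytokine that often accompanies IFNG, was at 181 and 153 CPM, LTB at 462 and 554 CPM, TGFB1 at 135 and 121 CPM, and TNFSF10, which encodes TRAIL, 1.54-fold higher (1.28 to 1.85). Checkpoint receptors split, with 3 of 9 counted as higher and 1 as lower. CD244, also an NK receptor, was 6.33-fold and ENTPD1, the ectonucleotidase CD39, 5.70-fold higher, while CTLA4 had 14 against 48 UMIs (8.81-fold lower, 4.78 to 17.3). The third higher member was CD96. Homing receptors had a median of -0.18 over 14 members, with 1 counted as higher (S1PR5, 38 against 4 UMIs) and 2 as lower, S1PR1 among them. CXCR3 and CXCR6, known on effector and resident T cells, were near level at 61.4 and 70.0 CPM and at 63.5 and 61.1 CPM. Tissue residency genes were at 0.26 over 10 members, with AHR, a sensor of aromatic ligands, the one past 2-fold (2.88-fold higher, 2.38 to 3.52) and ITGAE, the integrin chain CD103, at 24.1 against 50.5 CPM. RGS1 was at 900.0 and 1006 CPM.

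T cell receptor signalling genes had a median of -0.23 (-0.76 to -0.03) over 13 genes, of which 0 counted as higher and 1 as lower. That one was UBASH3A, which damps receptor signals (62 against 58 UMIs, 2.40-fold lower). THEMIS, a thymocyte selection protein, was 1.71-fold lower (1.52 to 1.92), CD247, the zeta chain that NK cells also use, was at 245 and 279 CPM, and TRAT1 was 1.27-fold higher. With CD3-positive cells without NCR1 or KLRF1 the median was 0.08. In the T cell subset list, of 7 members, CD4 was the one counted as lower and 0 as higher, and the median was -0.76, and GATA3 and CD40LG were 1.81-fold and 1.77-fold lower.

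**Figure D4:**
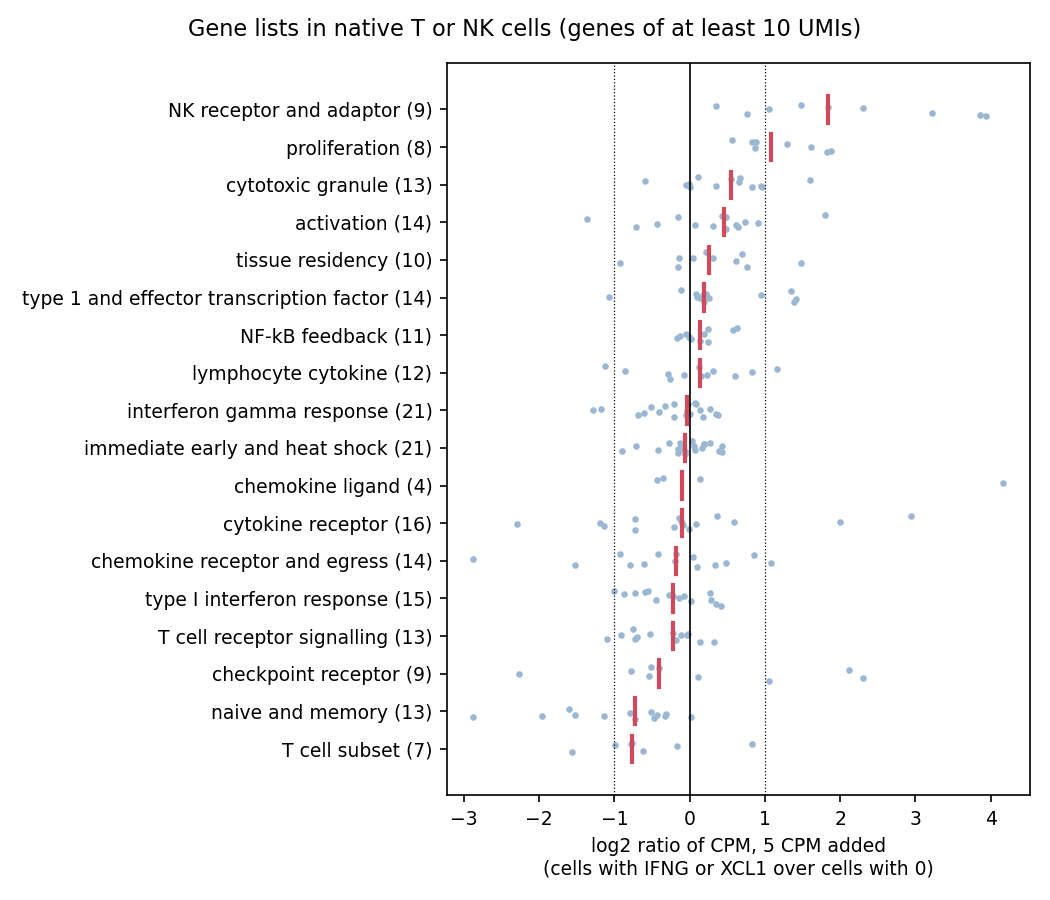
Each small point is 1 gene of a list, placed by its log2 ratio of CPM with 5 CPM added between the 422 native T or NK cells with IFNG or XCL1 and the 263 with 0, and red bars mark list medians. Numbers in brackets count the genes with at least 10 UMIs, and dotted lines mark 2-fold. The NK receptor list lies to the right with a median of 1.84, and the naive and memory list to the left with -0.73.

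Cells with IFNG only and cells with XCL1 only had different profiles. Of 10201 genes with at least 10 UMIs over both, 329 counted as higher with IFNG only (3.23%) and 622 as lower (6.10%). The log2 ratio over these genes had a median of 0.02. The sets had median depths of 5054.5 and 6673.5 UMIs. A cell of low depth can miss either ligand, so the sets are defined by what was found and not by what a cell makes. Genes of conventional T cells were higher with IFNG only. GZMK was at 204 against 28.0 CPM (7.26-fold, 5.03 to 10.7), ICOS at 234 against 38.6 CPM (6.05-fold, 4.39 to 8.46) and THEMIS at 646 against 128 CPM (5.05-fold, 4.22 to 6.06). CD4 had 37 UMIs in 18 of 126 cells against 8 UMIs in 6 of 190, and BCL11B, a factor that sets T cell identity, was 4.56-fold higher. CSF1, a growth factor of macrophages, was at 94.6 against 15.1 CPM (6.25-fold, 3.74 to 10.9). PTPRJ, a receptor phosphatase (5.19-fold) and DAPL1 (6.26-fold) complete the 8 highest.

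The 8 named genes with the lowest ratios, higher with XCL1 only, were nearly absent with IFNG only. PLEKHA5 had 1 UMI with IFNG only and 258 with XCL1 only, SKAP2 1 and 234, PDE7B, a phosphodiesterase, 1 and 170, EPB41L3 2 and 187, and MTSS1 4 and 367. CCL1 had 0 and 201 UMIs, 131 of them in 1 cell. Over all 422 cells, 186 of the 246 CCL1 UMIs lay in the 36 cells with both CD3 and NCR1 or KLRF1, and CCL1 was at 30.4 CPM with CD3 only and 14.9 CPM with NCR1 or KLRF1 only. C5AR1, the receptor for complement fragment C5a, had 0 UMIs and 123 UMIs in 37 of 190 cells, and SPEF2 had 0 and 114 in 53 cells. C5AR1 was at 67.8 CPM in the other native cells as well. With their counts near 0 in one of the sets, the sizes of these differences are not well bounded.

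By list, 7 of 13 T cell receptor signalling genes counted as higher with IFNG only and 0 as lower, and the median was 1.14. For NK receptors 1 of 9 was higher, SLAMF7 (41 against 23 UMIs), and 5 were lower, with a median of -1.17. KLRK1 was at 533 against 905 CPM, and KLRF1 had 1 against 141 UMIs. IL12RB2 was 5.86-fold lower with IFNG only (4.75 to 7.31) at 136 against 798 CPM, and IL2RB was 2.26-fold lower (1.90 to 2.69). CD8A was 2.30-fold higher with IFNG only (1.80 to 2.93). Cytotoxic granule genes had a median of 0.31 with 3 of 13 higher, namely GZMK, GZMA (27 against 11 UMIs) and FASLG, the death receptor ligand (200.6 against 94.7 CPM, the last 2 of the 3 named after their values were seen), while GZMB was 1.51-fold higher (1.27 to 1.79). The transcription factors ZEB2, known from terminal effector cells, and IKZF2 lay on opposite sides, at 467 against 134 CPM and at 120.4 against 511 CPM. Among activation genes TNFRSF18 was 6.001-fold lower with IFNG only (3.47 to 11.2) and ICOS higher, with a list median of -0.04. Interferon gamma response genes had a median of 0.59 with NLRC5, an activator of MHC class I genes, and CXCL10 the 2 of 20 counted as higher and 0 as lower. PSMB8 was 1.78-fold higher, TAP1 2.01-fold (1.63 to 2.48), and CXCL10, a chemokine induced by interferon gamma, had 28 against 16 UMIs.

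The cells with both ligands lay near those with XCL1 only for lineage genes. CD3E was at 845 CPM with both, 788 CPM with XCL1 only, 2058 CPM with IFNG only and 1775 CPM with 0. KLRF1 was at 118, 107, 1.43 and 0.886 CPM in that order, and KLRK1 at 879, 905, 533 and 222 CPM. CD69 differed little among the 3 sets with a ligand, at 475, 440 and 411 CPM, and was at 289 CPM in the cells with 0. Their depth was the highest, with a median of 7816.5 UMIs.

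**Figure D5:**
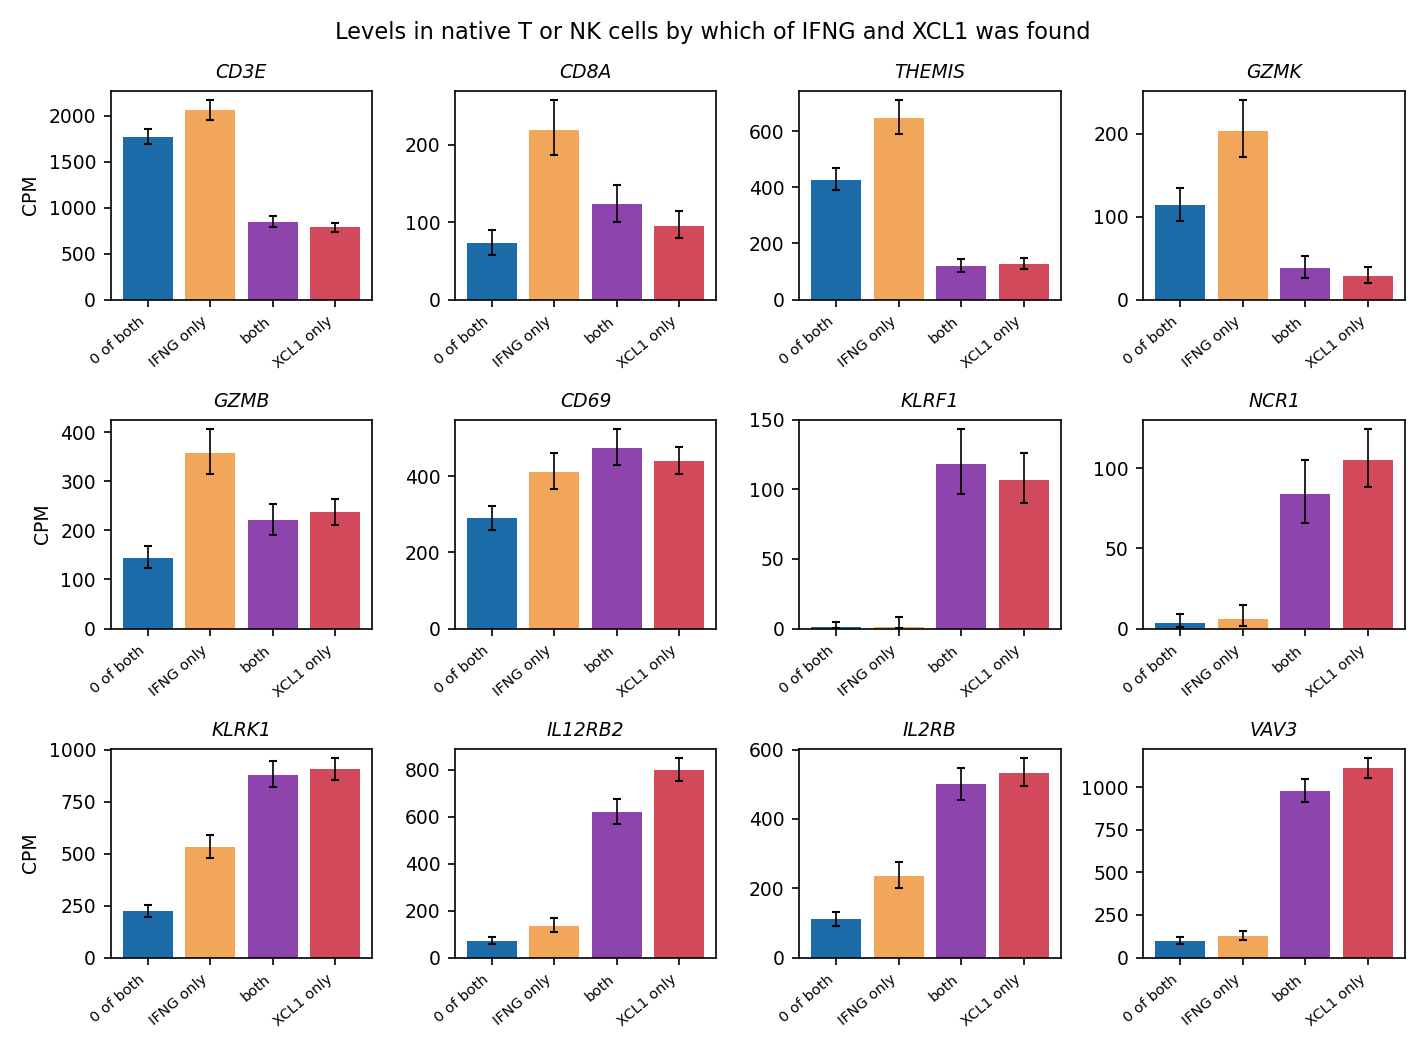
Bars give summed CPM of 12 genes in native T or NK cells with 0 of both ligands (263 cells), IFNG only (126), both (106) and XCL1 only (190), with exact 95% Poisson intervals for counting error. Each panel has its own axis from 0. CD3E, THEMIS and GZMK are highest with IFNG only, and KLRF1, NCR1, IL12RB2 and VAV3 are high in both sets with XCL1.

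Receptors for the 2 ligands were found on other native cells. IFNGR1 was at 192 CPM in endothelial cells, 230 CPM in macrophages and 56.9 CPM in fibroblasts, against 24.1 CPM in the cells with a ligand. IFNGR2 was at 82.2, 325 and 239 CPM in the same classes. XCR1 had 135 UMIs in 81 of 1201 cells of the macrophage class (17.9 CPM, 14.98 to 21.1) and 7 or fewer UMIs in each of the endothelial and fibroblast classes and in the T or NK cells. The macrophage rule uses C1QA, C1QB, AIF1 and CSF1R and does not separate dendritic cells. CXCL10 was at 260.2 CPM in endothelial cells, 169 CPM in macrophages and 18.97 CPM in the cells with a ligand.

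The same rule applied to the graft gave 70 T or NK cells, of which 30 held a ligand (42.9%, 31.1 to 55.3%). After the draw to 1000 UMIs the graft share was 28.6% (18.4 to 40.6%), against 42.0% (38.1 to 46.0%) in the artery. XCL1 was found in 28 graft cells, at 470.0 CPM over all graft T or NK cells (422 to 522) against 1060 CPM in the artery (1028 to 1092). IFNG was found in 6 graft cells with 9 UMIs, at 12.0 CPM (5.48 to 22.7) against 220.0 CPM (206 to 235), and at 1000 UMIs in 0 of 70. NCR1 or KLRF1 was in 16 of the 30 graft cells with a ligand and in 0 of the 40 without, and CD3 in 16 of 30 and 38 of 40. Cells with IFNG and no XCL1 numbered 126 of 685 in the artery and 2 of 70 in the graft. The graft cells called T or NK also carried RNA of other cell types. All 7 genes of the fibroblast list and all 6 of the smooth muscle list were found in them, at 18418 and 3099.9 CPM in all, against 303 and 30.04 CPM in the native T or NK cells and 10769.5 and 3140.0 CPM in other graft cells. The fibroblast list was at 2587 CPM in the 30 graft cells with a ligand and 28287 CPM in the 40 without, from 0 to 68987 CPM in a single cell with a median of 568. The part of this RNA, and of cells so called, in the difference between artery and graft was not tested.

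Markers of the 3 classes used in the rule, which limits them, were low in the cells with a ligand. The 6 endothelial genes of the rule were at 105 CPM, against 141 CPM in the cells with 0 and 2062 CPM in other native cells. The 4 macrophage genes were at 43.8, 80.6 and 1711 CPM, and the 4 fibroblast genes at 37.3, 61.1 and 1355 CPM. Of 6 smooth muscle genes 0 were at 0 UMIs, at 20.7 CPM in all against 54.1 CPM in the cells with 0. The 8 B or plasma cell genes were at 60.7 CPM, against 71.8 CPM in the cells with 0 and 39.8 CPM in other native cells. CD79A, a chain of the B cell receptor, held 155 of the 176 UMIs, in 98 of the 422 cells (53.5 CPM, against 57.6 CPM in the cells with 0 and 5.77 CPM in other native cells), while 3 of the 8, PAX5 and TNFRSF17 among them, had 0 UMIs. Of 7 dendritic cell genes 6 had a symbol, and they were at 51.4, 60.3 and 24.98 CPM, with CLEC9A and CLEC10A at 0 UMIs in the 422 cells. Both lists were thus higher in T or NK cells than in other native cells. Mast cell genes were at 6.21, 9.75 and 8.63 CPM. Of 6 neutrophil genes 3 had a symbol, as did 3 of 6 red cell or platelet genes, and these had 0 UMIs in both sets. In other native cells the 2 lists were at 9.79 and 0.0773 CPM, so a count of 0 says little, above all for the second. Each of these lists with any UMIs was lower in the cells with a ligand than in those with 0, and their part in the lower genes was not tested.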

How the data were processed

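Single cells of 1 native artery and 1 graft were captured with 10x Genomics chemistry. The deposited values are UMI counts per gene and barcode, in a filtered matrix per library made with Cell Ranger 7.2.0, per the file headers. Seurat 5.0.0, R 4.3.3 and bcl2fastq 2.20.0.422 appear in the submitters' processing notes. The genome build is not given in the sources used here. Of 21890 genes, 6435 carry an identifier only.

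The cells and gene lists were chosen with earlier results of these data known. Native barcodes with at least 500 UMIs and at most 20% mitochondrial UMIs (13 genes) were classed by the counts named in the report. UMIs were summed per set of cells and divided by the set's total to give CPM. A ratio of CPM has an exact conditional binomial interval, a share a Clopper-Pearson interval, a level an exact Poisson interval and a list median an interval from order statistics, all at 95%. Log2 ratios had 5 CPM added. Against a set at 0 UMIs the fold used a floor of 3 UMIs over the set. For shares, cells were also drawn down without replacement to 1000 UMIs. With 1 library per tissue there was no test and no p-value.

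Named genes were, with at least 50 CPM and 30 UMIs in the higher set, the 15 highest and 15 lowest ratios against the cells with 0. For IFNG only against XCL1 only they were the 8 highest and 8 lowest, with at least 15 UMIs. From each list came the 4 genes of highest level and the highest and lowest ratio, beside a fixed set that also held CD8B and TRDC, for which no value is given. Genes for immunoglobulins, haemoglobins, ribosomal proteins and mitochondrial products could not be named. Results for a few genes are not reported here.

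Scrublet in scanpy 1.11.5 called 1 native barcode and 3 graft barcodes as doublets, under 0.5% of the native barcodes, so its calls were not used and doublets stayed in. Counts of 9256 genes were simulated for the comparison of cells with a ligand against cells with 0. They were Poisson draws from the summed profile of the native T or NK cells, without bunching in few cells. The genes changed had at least 50 CPM over those cells. Of these, 99 of 100 changed 2-fold and 99 of 100 changed 4-fold were recovered within 0.5 log2 units. Of unchanged genes 8 of 9056 passed 2-fold, a count that does not cover genes bunched in few cells. Python 3.11.15, numpy 2.4.6, scipy 1.17.1, pandas 2.3.3 and matplotlib 3.10.9 were used. The alternatives tried were other limits on depth and on class genes, other amounts added, doublet removal, equal weights for cells and subsets by CD3.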

Additional observations from a re-analysis of the deposited data

How the results depend on the processing

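Drawing all cells to 1000 UMIs before the classes were called gave the largest shifts. The native share of T or NK cells with a ligand became 40.7% and the graft share 28.8%, with 57 genes higher and 75 lower of 2991 tested, a cytotoxic list median of -0.018 and a PCDH7 log2 ratio of 0.44, the reverse of its direction. Asking for 2 ligand UMIs gave a native share of 49.6%. Adding 1 CPM in place of 5 gave 505 genes higher and 261 lower, and testing genes of at least 10 UMIs gave 234 lower. In CD3-positive cells without NCR1 or KLRF1, a subset chosen after seeing the data, 190 genes were higher and PLEKHA5 turned to -0.42, on 9 UMIs in the cells with a ligand. Fewer genes or cells enter the first and last of these by construction, and the cause of the other shifts was not tested. Of the 30 genes named against the cells with 0, 26 stayed at least 2-fold apart when drawn to 1000 UMIs first, 25 of 28 tested in that CD3-positive subset, and 29 or 30 under each other alternative. No library could be left out with 1 per group. No paired analysis was possible because each tissue has 1 library. Depth limits the low genes: 3 UMIs over the cells with 0 equal 2.66 CPM.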
